A study of Mus musculus with 21 samples.

Results

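Solute carriers are membrane proteins that move nutrients, ions, metals and organic molecules across the plasma membrane or the membranes of organelles. The set described here holds every gene whose symbol starts with Slc and a digit and whose probe set, the group of oligonucleotides that reports 1 transcript, gave a signal above 500 on at least 3 of 21 microarrays of mouse spleen leukocytes. One probe set was kept per gene, the one with the highest mean signal. The rule kept 141 of the 347 Slc genes named on the array, from 42 families. Another 122 Slc genes had enough signal to be tested but stayed under the threshold, and 84 were not tested. By the third highest signal of each gene, the members just inside the threshold were Slc6a12 at 500.1 and Slc39a3 at 500.6, and the genes just outside it were Slc22a17 at 498.8 and Slc25a42 at 497.4. The symbols of 3 members name no carrier: Slc2a4rg-ps is a pseudogene of a regulator, Slc4a1ap is an adaptor protein and Slc9a3r1 is a scaffold that holds carriers at the membrane. They were kept because the rule goes by symbol, which leaves 138 carriers.

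The study compared dendritic cells (DCs), which take up and present antigen, with each other and with lymphocytes. All cells came from the spleens of C57BL/6 mice, and each of the 7 groups had 3 arrays. The groups 33D1_WT and DEC205_WT were DCs of untreated wild-type mice, named for the surface molecules 33D1 and DEC205, with 40 to 80 mice pooled for each array. The groups 33D1_Flt3L and DEC205_Flt3L were the same subsets from mice injected with a melanoma described as Flt3L and killed on day 10 to 12, with 20 mice pooled for each array. Flt3 ligand is a growth factor that expands DCs, and here it came together with a tumour, so ligand and tumour cannot be told apart. The groups B_cells, CD4_T_cells and CD8_T_cells came from wild-type mice, 5 to 8 of them pooled for each array. As background, 33D1 marks splenic DCs that lack CD8, and DEC205, the product of Ly75, marks those that carry it.

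Solute carriers are grouped in numbered families by sequence, and a family often shares a kind of substrate. Plasma membrane carriers bring in glucose, amino acids and carnitine, the SLC25 family serves the inner mitochondrial membrane, the SLC35 family brings nucleotide sugars into the Golgi apparatus and endoplasmic reticulum, and a scattered set works in endosomes and lysosomes. In phagocytes and DCs the last set is known for withdrawing metals from engulfed microbes and for supporting the Toll-like receptors of endosomes.

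Promoter sequences are shown for the 2 members with the largest and the 2 with the most negative subset differences among those with a usable entry in the RefSeq promoter table (GRCm38.p6, 106 of the 141 members matched). The arrays measured transcripts and nothing at these promoters. Each line gives the 250 bases before the first listed start of the gene, 5′ to 3′ on the gene's strand, with GGAA or its reverse TTCC, the core recognised by ETS factors, in capitals. Slc6a12 lies on the plus strand at chr6:121342324-121342573 and has 5 listed starts, Slc15a4 on the minus strand at chr5:127617393-127617642, Slc11a1 on the plus strand at chr1:74374953-74375202 and Slc12a7 on the plus strand at chr13:73763410-73763659 with 2 listed starts.
Slc6a12: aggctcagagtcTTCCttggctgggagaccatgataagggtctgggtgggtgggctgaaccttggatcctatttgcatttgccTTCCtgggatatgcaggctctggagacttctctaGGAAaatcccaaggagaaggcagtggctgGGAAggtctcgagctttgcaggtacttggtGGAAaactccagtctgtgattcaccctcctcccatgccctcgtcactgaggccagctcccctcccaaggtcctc
Slc15a4: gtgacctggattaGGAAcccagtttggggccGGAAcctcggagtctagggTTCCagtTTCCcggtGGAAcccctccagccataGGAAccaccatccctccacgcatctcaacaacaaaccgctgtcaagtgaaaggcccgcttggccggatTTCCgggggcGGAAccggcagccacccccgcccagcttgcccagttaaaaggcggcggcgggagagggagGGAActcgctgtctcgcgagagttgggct
Slc11a1: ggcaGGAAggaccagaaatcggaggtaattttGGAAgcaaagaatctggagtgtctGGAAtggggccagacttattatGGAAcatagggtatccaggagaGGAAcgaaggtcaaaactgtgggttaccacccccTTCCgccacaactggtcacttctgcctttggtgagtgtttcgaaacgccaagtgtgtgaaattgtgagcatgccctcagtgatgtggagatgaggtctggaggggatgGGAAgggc
Slc12a7: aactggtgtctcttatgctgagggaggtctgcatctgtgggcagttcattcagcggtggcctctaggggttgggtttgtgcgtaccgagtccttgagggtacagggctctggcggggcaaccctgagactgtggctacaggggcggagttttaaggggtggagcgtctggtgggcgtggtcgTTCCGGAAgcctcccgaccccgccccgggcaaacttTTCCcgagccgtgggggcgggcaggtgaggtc
The core was matched 5 times before Slc6a12, 9 times before Slc15a4, 7 times before Slc11a1 and 3 times before Slc12a7. It is a short word that 93.4% of 27025 promoters of this length hold on one strand or the other, and 88.7% of the 106 members. The composite ETS and IRF element, GGAA and GAAA with 2 free bases between them, was searched on both strands and overlaps the shorter motif. It was in none of the 4 promoters shown, in 2.38% of all promoters and in 1.89% of the members' promoters, namely those of Slc35f6 and Slc4a8. The interferon response type element, GAAA and GAAA with 2 free bases between them, was in none of the 4, in 3.04% of all promoters and before 1 member, Slc37a1. The palindrome CACGTG, the E-box that TFEB and MYC family factors bind, was also in none of the 4. It stood before 14 members (13.2%) and in 6.05% of all promoters. The members were chosen for signal above 500, and the share among other genes above 500 was not computed. Nothing particular to carriers is therefore read from these shares. Both CACGTG and GGAA were chosen after values were seen. These are descriptions of letters in a fixed window.

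Signals were deposited on a linear scale with the same trimmed mean of 500 on every array. Limma tests, taken for both directions of change, were run on log2(signal + 48.6) over 13284 genes, with all 21 arrays in one fit, and a gene is said to be called where the Benjamini-Hochberg adjusted p was under 0.05. Differences are on that log2 scale with their standard error (SE), the first group named minus the other, and they understate the change of dim genes. Each array was a pool of mice, and nothing given here says that arrays of a group came from separate pools. A p-value therefore measures the spread between arrays within groups. The fit estimates that spread over all 7 groups together, not from the groups compared alone. In such bulk samples, fewer cells of a type and less RNA per cell cannot be told apart. The summed signal of 6 CD8-positive DC markers was 74720 to 86130 in DEC205_WT and 1722 to 2173 in 33D1_WT, and the sum of 6 CD8-negative DC markers was 70060 to 74810 in 33D1_WT. A pair of arrays stood apart from their groups. DEC205_WT replicate 3 had a CD8-negative DC sum of 5433 against 1646 and 2329 in its group, and 33D1_Flt3L replicate 3 a CD8-positive DC sum of 6118 against 2141 and 2662. They are called the mixed arrays below, and results are given without them where they touch a call. B cell markers summed to 121200 to 133000 in B cells, and T cell markers to 59100 to 74390 in T cells. The description of the lymphocyte arrays calls them DCs, whereas their titles and these markers name lymphocytes.

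Across the 7 groups, 52 members exceeded 500 on all 21 arrays and 74 in at least 1 array of every group. The number of members above 500 on all 3 arrays of a group was 92 in 33D1_WT, 87 in DEC205_WT, 88 in each Flt3L group, 82 in B cells, 89 in CD4 T cells and 92 in CD8 T cells. CD8 T cells had the highest mean for 30 members, and for 10 of these all 3 of their arrays lay above the other 18. In all, 35 members had a top group set apart in this way. The same counts over all genes were not made, so nothing particular to carriers is read from them. A member that passed the threshold only through arrays on 1 side of a comparison had to differ in it, so such members are given below as values with no test. Only Slc6a12, in 33D1_WT, and Slc22a21, in DEC205_WT, exceeded 500 in the arrays of a single group.

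The first question was how the wild-type subsets differ. A glucose carrier, endolysosomal peptide carriers, choline carriers and several amino acid carriers had more signal in 33D1 DCs. The carnitine carriers Slc22a5 and Slc25a20, a mitochondrial calcium exchanger and a potassium chloride cotransporter had more in DEC205 DCs. A phagosomal metal carrier, Slc11a1, and the carnitine carrier Slc22a21 passed 500 only through DEC205 arrays, so their direction was set by the rule. Of all 13284 genes, 23.1% were called in this comparison, 11.3% higher in 33D1 and 11.8% lower, and of the 8461 genes that also exceeded 500 on at least 3 arrays, 32.5% were called, 15.5% higher and 17% lower. Of the 141 members, 30 were called higher and 31 lower, which is 43.3%. The counts of the substrate lists below are read beside the 32.5%, and nothing particular to a list is read from them. Without the 8 members that passed only through arrays of 1 subset, 27 of 133 were called higher and 26 lower, or 39.8%. The median difference of the members was −0.06 against 0.04 over all genes. Without the mixed arrays, 25 members were called higher and 26 lower, and all 51 had been called in the same direction with them. Among Slc genes tested that are not members, 9.84% were called.

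**Figure D1:**
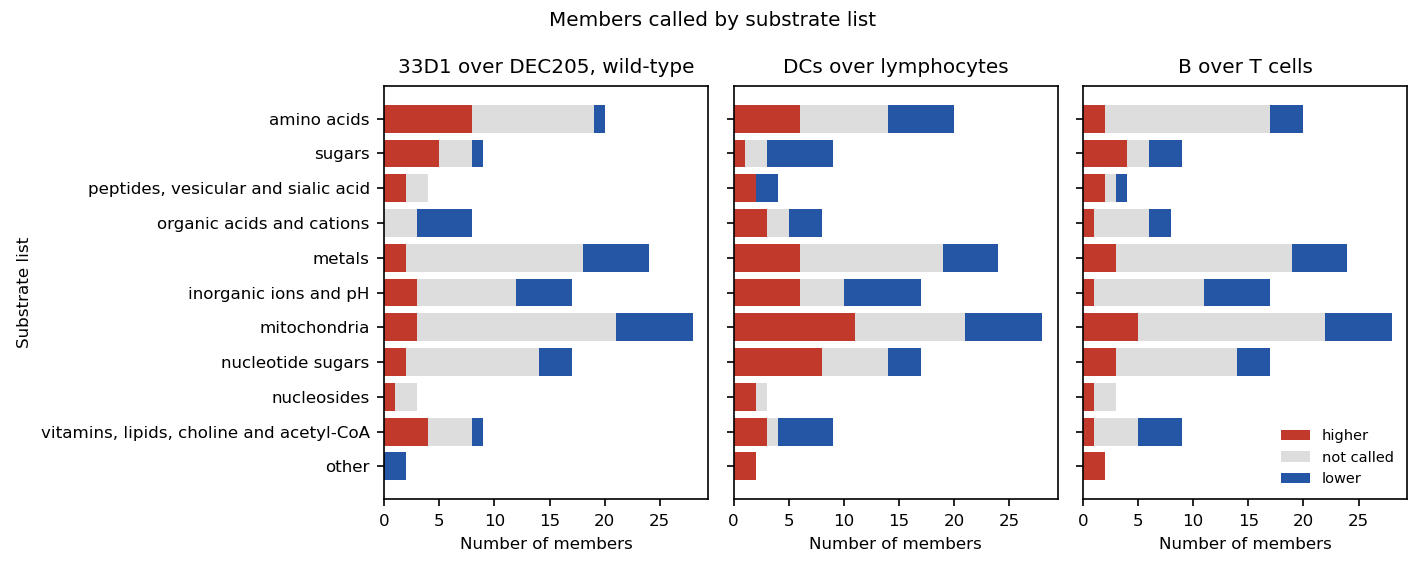
Stacked bars give the number of members called higher (red), called lower (blue) or not called (grey) in each substrate list, for 33D1 over DEC205 wild-type DCs, DCs over lymphocytes and B over T cells. In the left panel 8 of 20 amino acid carriers are red and 1 is blue, and 5 of 8 carriers of organic acids and cations are blue and none is red; members that passed 500 on 1 side of a comparison only are counted in the bars.

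The sugar list held 8 carriers and a pseudogene. Of the carriers 4 were higher in 33D1 DCs and 1 was lower, and 3 and 1 of 7 without the one that exceeded 500 in 33D1 arrays only, where the median difference was 0.13. The carrier with the largest difference was Slc2a3, or GLUT3, a high-affinity glucose transporter. Its signals were 8632, 8792 and 6764 in the 33D1 pools of wild-type mice and 221.3, 248.9 and 527.5 in the DEC205 pools. Every 33D1 array was far above every DEC205 array, and the highest DEC205 value was that of the mixed array. The difference was 4.49 ± 0.19 (SE, adjusted p = 2.42e-13), and it was 4.83 without the mixed arrays. B and T cells lay between the subsets, at 2015 to 2965. Slc2a1, or GLUT1, the widely expressed glucose transporter, gave 717.2, 636.4 and 582.4 against 594.6, 520.9 and 646.4. These overlapped, and its difference of 0.13 ± 0.13 had an adjusted p of 0.578. Slc2a6, or GLUT6, a hexose carrier of lysosomal membranes, gave 817.8, 918 and 540.5 in 33D1 DCs and 132.4, 237.6 and 226.3 in DEC205 DCs, and it exceeded 500 in 33D1 arrays only. Slc45a4 was higher by 0.53 ± 0.16 (adjusted p = 0.0188) and Slc50a1, or SWEET1, by 0.29 ± 0.09 (adjusted p = 0.0244). The pseudogene Slc2a4rg-ps was also called higher (adjusted p = 0.00459), but not without the mixed arrays (0.69, adjusted p = 0.0524). Slc37a3 was the exception, lower, with a difference of −0.71 (adjusted p = 0.000883).

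Of 20 amino acid carriers, 8 were higher in 33D1 DCs and 1 was lower, or 45% called. Without the 2 that exceeded 500 in 33D1 arrays only, 6 of 18 were higher and 1 was lower, with a median difference of 0.19. Slc38a1 and Slc38a2, which bring in small neutral amino acids such as glutamine and alanine together with sodium, were both higher. Slc38a2 gave 6038, 5999 and 5533 in 33D1 DCs and 3066, 2171 and 2783 in DEC205 DCs, with no overlap and a difference of 1.13 ± 0.20 (adjusted p = 0.000202). Slc43a2, or LAT4, which carries large neutral amino acids, gave 2022, 2507 and 1817 against 1286, 960 and 839.5. All its 33D1 arrays lay above its DEC205 arrays, by 1.02 ± 0.18 (adjusted p = 0.000182). Slc6a12 and Slc6a13, transporters of betaine and GABA, exceeded 500 in 33D1 arrays only. Slc6a12 gave 500.1, 611 and 518 in 33D1 DCs and 32.3, 46.4 and 88.5 in DEC205 DCs, and 7.3 to 23.9 in lymphocytes. Slc6a13 gave 1034, 1014 and 1071 against 239.2, 321.5 and 316.3. The lower member was Slc1a5, or ASCT2, a glutamine exchanger, with 1667, 1332 and 1650.3 in 33D1 DCs and 2644, 2041 and 2193 in DEC205 DCs. The arrays did not overlap, and the difference was −0.55 ± 0.17 (adjusted p = 0.018), which was lost without 33D1_WT replicate 2 (adjusted p = 0.102) or DEC205_WT replicate 1 (adjusted p = 0.104), and when all probe sets of the gene were averaged (adjusted p = 0.241). Slc3a2, the heavy chain that carries several exchangers to the cell surface, gave 3229.5, 4226 and 2169 against 4461, 3446 and 4748 and missed the threshold (adjusted p = 0.147), while without 33D1_WT replicate 2 its difference was −0.65 (adjusted p = 0.0267). Slc7a5, or LAT1, its light chain partner, gave 485.4, 404 and 302.4 against 527.7, 319.8 and 498.9 and overlapped (adjusted p = 0.811). Another 3 members were called higher, namely the lysosomal carriers Slc36a1 and Slc38a9, described with the endolysosomal set, and Slc7a7 by 0.64 (adjusted p = 0.00973).

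The peptide and histidine carriers of endolysosomes Slc15a3 and Slc15a4 were both called higher in 33D1 DCs among the 4 members of their list. Slc15a4 is known to support signalling by nucleic acid-sensing Toll-like receptors. It gave 3365, 3592 and 2629 in 33D1 DCs and 761.4, 635.1 and 855.3 in DEC205 DCs, a difference of 2.02 ± 0.21 (adjusted p = 1.45e-07). Slc15a3 gave 1232, 1096 and 627.6 against 186.9, 94 and 237.5, a difference of 2.23 ± 0.30 (adjusted p = 4.49e-06). The subsets did not overlap for either gene. B cells had 3006, 3015 and 2959 for Slc15a4, in the range of 33D1 DCs, while T cells had 223.2 to 557.4. The sum of 7 B cell markers was 7326 to 9458 in 33D1_WT and 3674 to 4113 in DEC205_WT, against 121200 to 133000 in B cells. The part of B cell transcripts in these values was not tested. Slc15a2, or PEPT2, a peptide carrier of the plasma membrane, gave 395, 430.2 and 348.6 against 231.7, 279.3 and 354 (adjusted p = 0.348).

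In the list of vitamin, lipid, choline and acetyl-CoA carriers, 4 of 9 were higher and 1 was lower, or 55.6%. Both choline carriers, Slc44a1 and Slc44a2, were higher in 33D1 DCs. Slc44a2 gave 14480, 13427 and 14926 in 33D1 DCs and 4234, 3613 and 4219.5 in DEC205 DCs, 1.82 ± 0.12 apart (adjusted p = 1.08e-10). Slc44a1 gave 3766, 4487 and 3528 against 1566, 1363 and 1544, 1.36 ± 0.17 apart (adjusted p = 1.8e-06). There was no overlap for either. Slc14a1, a urea channel placed in this list by family number, was higher by 1.46 ± 0.21 (adjusted p = 1.32e-05). Slc33a1, which takes acetyl-CoA into the endoplasmic reticulum, went the other way, with 236.9, 351.6 and 606.8 in 33D1 DCs and 1736, 1446 and 1341 in DEC205 DCs. All its DEC205 arrays were above its 33D1 arrays, and the difference, 33D1 minus DEC205, was −1.88 ± 0.26 (adjusted p = 7.9e-06).

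**Figure D2:**
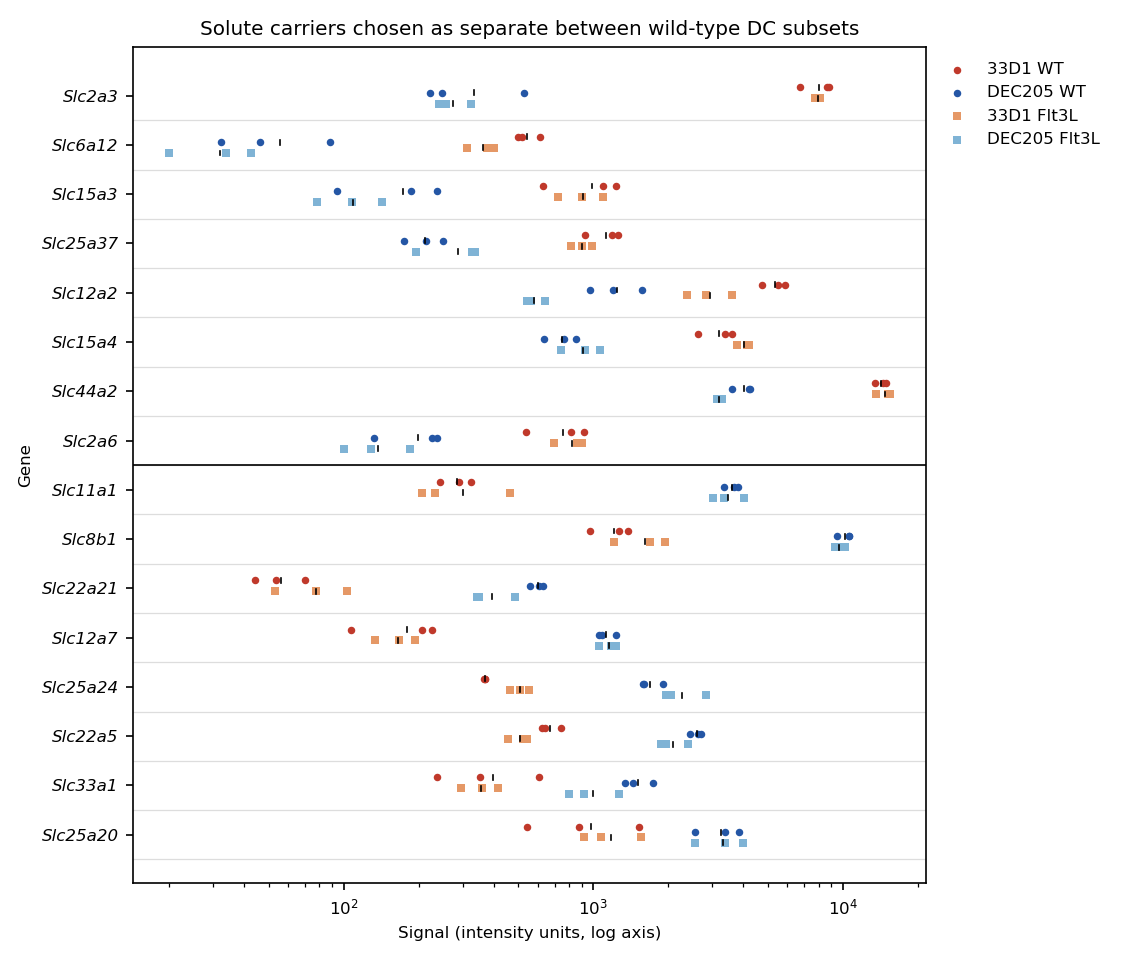
Points give the signal (log axis) on each array of the 4 DC groups, and a short black bar gives the mean of 3 arrays. The genes are the 8 highest and the 8 lowest called members among those whose wild-type subsets do not overlap. Circles are wild-type and squares Flt3L mice, red and orange 33D1, blue and light blue DEC205; the red and blue circles are separate because of that choice, and the highest blue circle of Slc2a3, at 527.5, is the mixed array.

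Of 8 carriers of organic acids and cations, 5 were lower in 33D1 DCs and none higher. Without the 2 that exceeded 500 in DEC205 arrays only, 3 of 6 were lower, with a median difference of −0.53. Slc22a5, or OCTN2, is the plasma membrane carnitine transporter, and carnitine is needed to move long-chain fatty acids into mitochondria. Its signals were 642.1, 740.6 and 624.7 in 33D1 DCs and 2708, 2632 and 2444 in DEC205 DCs. The groups were well apart, with a difference of −1.88 ± 0.18 (adjusted p = 5.53e-08). Slc22a21, a related carnitine carrier, gave 70.1, 44.2 and 53.5 in 33D1 DCs and 607.1, 628.9 and 559.6 in DEC205 DCs, the only arrays on which it exceeded 500. Slc22a23, also above 500 in DEC205 arrays only, gave 165.7, 123.4 and 104.8 against 651.7, 428.9 and 472.1. The carnitine and acylcarnitine exchanger of the inner mitochondrial membrane, Slc25a20, is listed with the mitochondrial carriers and was also lower in 33D1 DCs, at 873.9, 1527 and 541.1 against 3373, 2565 and 3836. Its arrays did not overlap, although both groups spread widely, and the difference was −1.78 ± 0.34 (adjusted p = 0.00032). Slc16a1, or MCT1, which carries lactate and pyruvate, gave 68.4, 112 and 93.1 in 33D1 DCs and 324.8, 227.4 and 406.6 in DEC205 DCs, a difference of −1.38 ± 0.21 (adjusted p = 2.32e-05).

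Among 24 metal carriers, 2 were higher and 6 lower in 33D1 DCs, or 33.3%, and 2 and 4 of 22 without those that exceeded 500 in DEC205 arrays only. The one furthest apart was Slc11a1, or NRAMP1, known as an exporter of iron and manganese from phagosomes and for its part in resistance to intracellular bacteria. The arrays measured its transcript only, and whether the carrier was functional in the mice used was not tested. It gave 243.2, 289.9 and 323.1 in 33D1 DCs, 3659, 3802 and 3329 in DEC205 DCs and 125.1 to 268.6 in lymphocytes, so only DEC205 DCs were above 500. The summed signal of 8 macrophage and monocyte markers ran the other way, at 18400 to 25080 in 33D1_WT and 13000 to 17620 in DEC205_WT, although Lyz2 within that list was at 1118 to 3434 in 33D1_WT and 5846 to 7606 in DEC205_WT. Slc11a2, or DMT1, its ferrous iron relative, gave 235.1, 342 and 319.8 against 550.5, 522.8 and 517. The subsets did not overlap and had a difference of −0.75 ± 0.16 (adjusted p = 0.00104), a call lost when all probe sets of the gene were averaged (adjusted p = 0.0548). Both copper carriers are members. For Slc31a2 the values were 460.1, 447.5 and 297.7 and 1147, 1048 and 789.8, a difference of −1.22 ± 0.30 (adjusted p = 0.00419). Slc31a1 exceeded 500 in DEC205 arrays only, and its values were 362.4, 384.9 and 389.5 and 495.7, 633.3 and 554.8. Zinc carriers went both ways, since the Golgi carrier Slc30a7 was lower, with a difference of −0.79 (adjusted p = 7.69e-05) and the importer Slc39a6 was higher by 0.72 ± 0.16 (adjusted p = 0.00147).

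Of 15 carriers of inorganic ions, 2 were higher and 5 lower in 33D1 DCs. Their list of 17 also holds the scaffold Slc9a3r1, called higher, and the adaptor Slc4a1ap. The cation chloride cotransporters Slc12a2 and Slc12a7 differed in opposite directions. Slc12a2, or NKCC1, which takes up sodium, potassium and chloride, gave 5484, 5858 and 4769 in 33D1 DCs and 1203, 972.4 and 1568 in DEC205 DCs. Its groups were separate, with a difference of 2.08 ± 0.17 (adjusted p = 2.8e-09). Slc12a7, or KCC4, which lets potassium and chloride out, gave 107.1, 225.4 and 205.4 in 33D1 DCs and 1057, 1231 and 1086 in DEC205 DCs, separate again, with a difference of −2.40 ± 0.21 (adjusted p = 8.16e-09). Slc8b1, or NCLX, returns calcium from mitochondria in exchange for sodium. It gave 1274, 1375 and 971 in 33D1 DCs and 9518, 10632 and 10609 in DEC205 DCs, a difference of −3.05 ± 0.20 (adjusted p = 1.28e-10). The sodium proton exchangers of organelles, Slc9a9 and Slc9a7, were both lower in 33D1 DCs, with differences of −1.29 (adjusted p = 1e-05) and −0.57 (adjusted p = 0.0329), and the second was not called without the mixed arrays (adjusted p = 0.0557).

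Of 28 mitochondrial SLC25 carriers, 3 were higher and 7 lower in 33D1 DCs, or 35.7%. Without the one that exceeded 500 in DEC205 arrays only, 3 of 27 were higher and 6 lower, with a median difference of −0.13. Slc25a37, or mitoferrin-1, brings iron into mitochondria. Its signals were 930.5, 1194 and 1253 in 33D1 DCs and 214.8, 173.8 and 249.4 in DEC205 DCs, a difference of 2.17 ± 0.25 (adjusted p = 6.29e-07). The gene is abundant in red cell precursors, and the sum of the 3 erythroid markers measured was 504.2 to 594.4 in 33D1_WT and 408.9 to 784.8 in DEC205_WT. The part of red cell precursors in its values was not tested. Slc25a24, a calcium-regulated carrier that exchanges ATP-magnesium for phosphate, gave 369.1, 364.7 and 368.7 in 33D1 DCs and 1896, 1584 and 1592 in DEC205 DCs. The 33D1 arrays lay within a few units of each other and far below DEC205, with a difference of −2.06 ± 0.20 (adjusted p = 3.76e-08). Slc25a26, which imports S-adenosylmethionine and exceeded 500 in DEC205 arrays only, gave 215.7, 332 and 255.3 against 786, 689.7 and 848.3. Slc25a4, an adenine nucleotide carrier with signals of 5048 to 7194 on the 6 arrays, missed the threshold (adjusted p = 0.233).

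Of 17 nucleotide sugar carriers, 2 were higher and 3 lower, or 29.4%, and their differences ran from −0.76 to 0.44. Slc35b1, which brings ATP into the endoplasmic reticulum, gave 1685, 1519.9 and 1591 in 33D1 DCs and 2628, 2719 and 2863 in DEC205 DCs, without overlap and with a difference of −0.76 ± 0.12 (adjusted p = 2.33e-05). Slc35f6 was lower, with a difference of −0.64 (adjusted p = 0.0127). Slc35a1, the Golgi carrier of CMP-sialic acid, was higher by 0.44 ± 0.13 (adjusted p = 0.0148), and it was not called without the mixed arrays (adjusted p = 0.0673) or without any of 33D1_WT replicates 1 and 2 and DEC205_WT replicates 2 and 3 (adjusted p 0.0505 to 0.0611). Among 3 nucleoside carriers, Slc29a1, or ENT1, was called, with 1071, 936.5 and 944.6 in 33D1 DCs and 528.7, 484.7 and 479.1 in DEC205 DCs and a difference of 0.92 ± 0.15 (adjusted p = 5.34e-05). The other two had adjusted p of 0.861 (Slc29a3) and 0.777 (Slc29a4).

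The same subset comparison in mice with the Flt3L melanoma used arrays of other mice. Of all genes, 23.5% were called, 11.7% higher in 33D1 DCs and 11.8% lower, and of those above 500 on at least 3 arrays 32.9%, 16% higher and 16.9% lower. Among the members 25 were called higher and 32 lower in 33D1 DCs, or 40.4%, and 22 of 133 higher and 27 lower without those that exceeded 500 in arrays of 1 subset only. Called higher in both comparisons were 24 members, called lower in both 27, and none was called in opposite directions. These counts include the 8 members that exceeded 500 in arrays of 1 subset only, whose direction was set by the rule. The same counts over all genes were not made, so nothing particular to carriers is read from them. Another 10 were called in wild-type mice alone, 6 in Flt3L mice alone and 74 in neither, while no member passed the test of a change in the subset difference (adjusted p 0.227 or above, lowest for Slc25a38). By the limma test of that change 0.105% of all genes were called, 0.0903% higher and 0.0151% lower, against 0.142% of the genes above 500 on at least 3 arrays, 0.118% higher and 0.0236% lower, and 10 members had an unadjusted p under 0.05. For Slc2a3 the Flt3L signals were 8129.8, 8064 and 7736 in 33D1 DCs and 256.1, 323.1 and 241.3 in DEC205 DCs, 4.65 ± 0.19 apart (adjusted p = 2.03e-13). These lay close to the wild-type values. Slc12a7 gave 166.9, 133.4 and 193.8 against 1058, 1235 and 1176, a difference of −2.51 ± 0.21 (adjusted p = 4e-09). Slc8b1 gave 1695, 1211 and 1932 against 9279.8, 9548 and 10236, a difference of −2.58 ± 0.20 (adjusted p = 1.49e-09). Slc11a1 gave 232.8, 206.2 and 464.2 against 4036, 3009.9 and 3344, with its highest 33D1 value on the mixed array. Slc43a2 was further apart than in wild-type mice, at 2377, 3651 and 2844 against 931.2, 745.2 and 769.1, yet its change of 0.77 ± 0.26 missed the threshold (adjusted p = 0.575). Slc7a7 was called in wild-type mice and not here (0.09 ± 0.18, adjusted p = 0.805), and its change of −0.55 ± 0.25 was not called either (adjusted p = 0.991). Without the mixed arrays, 24 members were called higher and 29 lower.

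**Figure D3:**
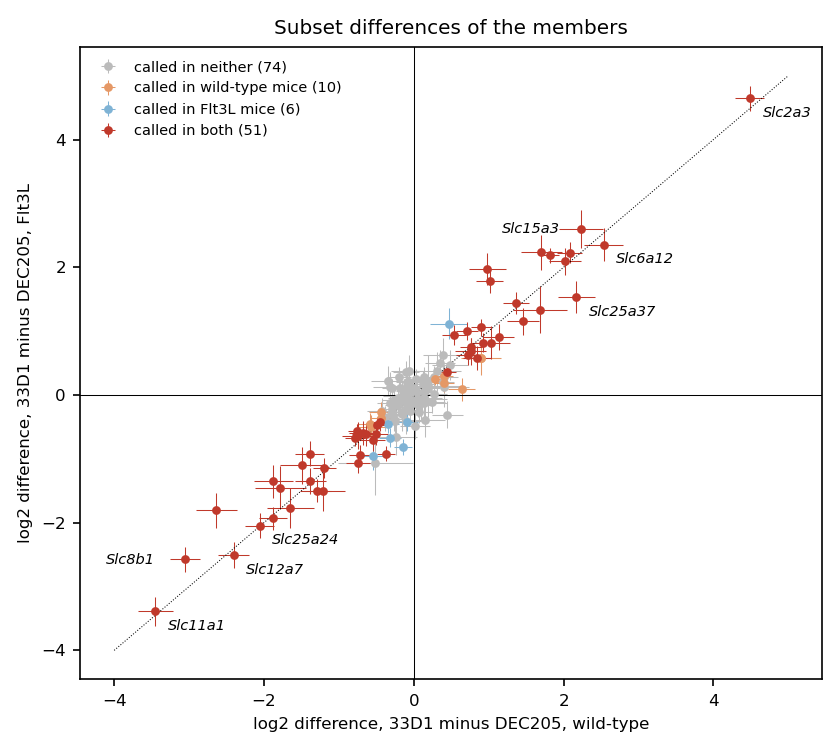
Each point is 1 of 141 members, placed by its 33D1 minus DEC205 difference (log2 units, bars are SE) in wild-type mice (horizontal) and in Flt3L mice (vertical), and the dotted line marks equal differences. The 51 members called in both comparisons (red) lie in the lower left and upper right of the plot. They run from Slc11a1 at −3.45 and −3.39 to Slc2a3 at 4.49 and 4.65. Among them are 8 members, Slc11a1 included, that passed the signal threshold through arrays of 1 subset only. The direction of these 8 was set by the rule.

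Within a subset, Flt3L mice differed from wild-type mice at few members. The sodium potassium chloride cotransporter Slc12a2 was called lower in both subsets. In 33D1 DCs 1.01% of all genes were called, 0.851% higher and 0.158% lower. Of the genes above 500 on at least 3 arrays 1.5% were called, 1.29% higher and 0.213% lower, and of the members 2, both lower. Slc12a2 gave 3595, 2839.7 and 2388 in 33D1_Flt3L against 5484, 5858 and 4769 in 33D1_WT, with no overlap and a difference of −0.87 ± 0.17 (adjusted p = 0.00933). It missed the threshold without 33D1_WT replicate 2 (adjusted p = 0.0703), without 33D1_Flt3L replicate 2 (adjusted p = 0.0556) and without 33D1_Flt3L replicate 3 (adjusted p = 0.0782), and was called with both mixed arrays left out (−0.74, adjusted p = 0.0426). With each array centred on its median it was not called in either subset (adjusted p = 0.148 in 33D1 and 0.0524 in DEC205 DCs). Slc25a38, a glycine carrier needed for haem synthesis, gave 978.7, 920.2 and 841.7 against 1221, 1455 and 1409.6, a difference of −0.55 ± 0.12 (adjusted p = 0.0277), and missed the threshold without the mixed arrays (adjusted p = 0.159), as it did without 33D1_WT replicate 2 (adjusted p = 0.157) or replicate 3 (adjusted p = 0.128) and without 33D1_Flt3L replicate 2 (adjusted p = 0.0983) or replicate 3 (adjusted p = 0.146). In DEC205 DCs 2.11% of all genes were called, 1.22% higher and 0.888% lower. Of the genes above 500 on at least 3 arrays 3.16% were called, 1.86% higher and 1.3% lower, and of the members 1 was higher and 3 were lower. For Slc12a2 the signals were 638.8, 564.2 and 542.3 in DEC205_Flt3L against 1203, 972.4 and 1568 in DEC205_WT, a difference of −1.02 ± 0.17 (adjusted p = 0.00147), and without the mixed arrays −0.85 (adjusted p = 0.00976). All 3 Flt3L arrays lay below all 3 wild-type arrays. The zinc carrier Slc30a4 gave 536.2, 370.4 and 553.2 against 838.4, 970.6 and 747.3, a difference of −0.76 ± 0.18 (adjusted p = 0.0245), and missed the threshold without DEC205_Flt3L replicate 2 (adjusted p = 0.176) or without DEC205_WT replicate 1 (adjusted p = 0.067) or 2 (adjusted p = 0.132). Slc25a26 gave 354.5, 424.3 and 560.1 against 786, 689.7 and 848.3 (−0.75 ± 0.19, adjusted p = 0.0405). The aspartate glutamate carrier Slc25a12 was the member called higher, with 2199, 2218 and 2031 against 1738, 1438 and 1473 (0.46 ± 0.12, adjusted p = 0.0435). Neither was called without the mixed arrays (adjusted p = 0.177 and 0.164), and Slc25a12 was not called with the replicate numbers of the Flt3L arrays as a block (0.46, adjusted p = 0.0518). Leaving out single arrays also ended the call of Slc25a26 for each of the 6 but DEC205_Flt3L replicate 3 (adjusted p 0.0723 to 0.194), and that of Slc25a12 for each but DEC205_WT replicate 1 (adjusted p 0.0743 to 0.192). Differences of all members ran from −0.87 to 0.48 in 33D1 DCs and from −1.02 to 0.56 in DEC205 DCs, with a median SE of 0.18. The CD8-negative DC marker sum was 54480 to 56800 in 33D1_Flt3L and 767 to 814.1 in DEC205_Flt3L, below the wild-type ranges of both subsets. The B cell marker sum was 1920 to 2349 in DEC205_Flt3L, below DEC205_WT, and that of plasmacytoid DC markers was 5836 to 7314 in 33D1_Flt3L against 3793 to 5021 in 33D1_WT. The CD4 marker sum was 1588 to 1830 in 33D1_Flt3L against 2226 to 2632 in 33D1_WT, and the erythroid sum 290 to 464.3 in 33D1_Flt3L, below 33D1_WT. The part of these markers in the results was not tested. The 4 melanoma markers measured summed to 521.8 to 717.3 in the Flt3L groups and 572.9 to 800.7 in the wild-type DC groups.

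Endolysosomal carriers were taken as a list of 20 genes, of which 16 are members, Slc17a5, Slc36a4 and Slc37a2 were tested but are not members, and Slc7a14 was not tested. In wild-type mice 6 of the 16 were called higher in 33D1 DCs and 5 lower, or 68.8% beside 32.5% of the genes above 500 on at least 3 arrays. Without Slc11a1, which exceeded 500 in DEC205 arrays only, 6 of 15 were higher and 4 lower, with a median difference of 0.11. Higher in 33D1 DCs, besides Slc15a3 and Slc15a4, were Slc46a3, Slc36a1, Slc38a9 and Slc49a4. Slc46a3 gave 12276, 12540.1 and 11482 against 7178, 7001 and 7990, a difference of 0.71 ± 0.15 (adjusted p = 0.000759). Slc36a1, a proton-coupled exporter of small amino acids, gave 538.5, 419.1 and 426.2 against 224.7, 235.4 and 238.3 (0.85 ± 0.19, adjusted p = 0.00154). Slc38a9, through which lysosomal arginine reports to the growth regulator mTORC1, gave 666.9, 749.8 and 1159 against 369.1, 527.6 and 396.8 (0.90 ± 0.26, adjusted p = 0.015). Its arrays did not overlap, yet it missed the threshold without 33D1_WT replicate 3 (adjusted p = 0.106), without DEC205_WT replicate 1 (adjusted p = 0.0662), without DEC205_WT replicate 3 (adjusted p = 0.0515) and without both mixed arrays (adjusted p = 0.0611). Slc49a4 was dim in all DCs, at 29 to 325.7, and was higher in 33D1 DCs by 0.98 ± 0.25 (adjusted p = 0.00534). Lower in 33D1 DCs, besides Slc11a1, Slc11a2 and Slc9a9, were Slc66a1 and Slc12a9. Slc66a1, which exports cationic amino acids from lysosomes, gave 696.9, 578.2 and 531 in 33D1 DCs and 1479, 1879 and 2007 in DEC205 DCs, without overlap and with a difference of −1.49 ± 0.29 (adjusted p = 0.000436). Slc12a9 gave 921.9, 896.8 and 730.7 against 1511, 1376 and 1278 (−0.68 ± 0.18, adjusted p = 0.00772). The other five had adjusted p from 0.751 (Slc17a9) to 0.901 (Slc38a7) and were, besides the sulphate carrier family member Slc26a11 and the glutamine carrier Slc38a7, the vesicular nucleotide carrier Slc17a9, the nucleoside carrier Slc29a3 and the haem carrier Slc48a1. Of the 11 with an entry in the promoter table, 4 hold CACGTG in the window described above, namely Slc12a9, Slc36a1, Slc38a7 and Slc49a4. Nothing particular to the list is read from this count.

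**Figure D4:**
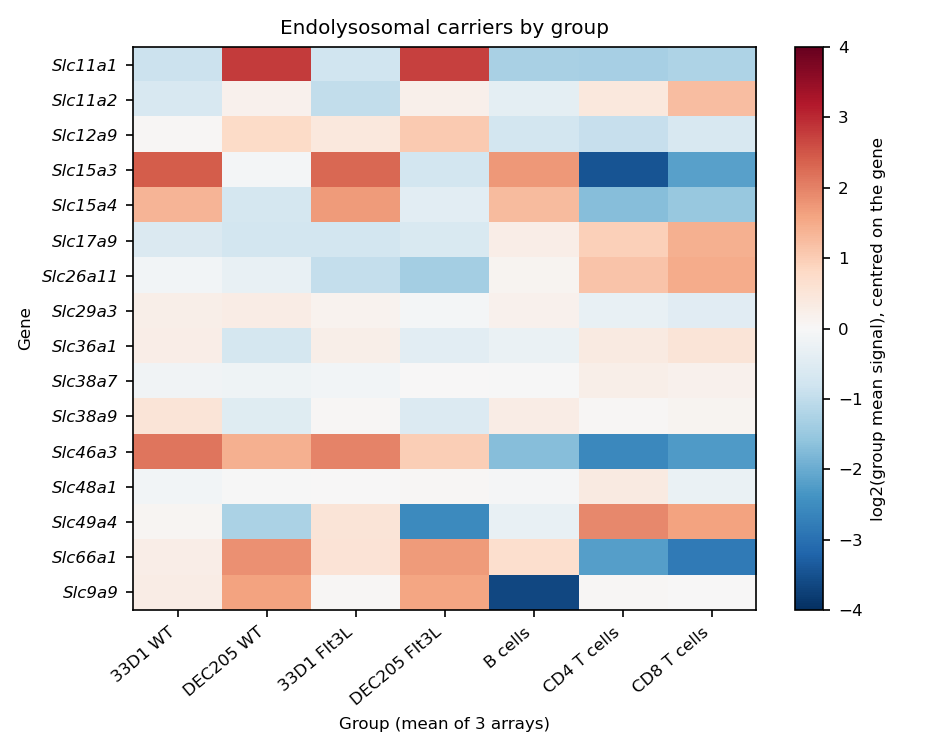
Colours give log2 of the group mean signal (3 arrays) of the 16 endolysosomal carriers in each group, centred on each gene's mean over the 7 groups, from blue (low) to red (high); rows cannot be compared in level. Slc11a1 is red in both DEC205 groups, Slc15a3 and Slc15a4 are red in 33D1 DCs and B cells, and Slc46a3 is red in all 4 DC groups.

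The second comparison set wild-type DCs, both subsets weighted equally, against the mean of the 3 lymphocyte groups. DCs had more signal of the lysosomal carrier Slc46a3, the calcium exchanger Slc8b1 and the cotransporter Slc12a2. Lymphocytes had more of the glucose carrier Slc2a1. The lactate carrier Slc16a1 and the reduced folate carrier Slc19a1 passed 500 only through lymphocyte arrays, so their direction was set by the rule. Of all genes 52.8% were called, 22.4% higher in DCs and 30.3% lower, and of the genes above 500 on at least 3 arrays 67.7%, 30.5% higher and 37.2% lower. Among the members 50 were called higher and 44 lower, or 66.7%, a share near that background. After centring each array on its median, which moves the median of all genes from −0.12 to −0.01, the split was 51 higher and 29 lower. Without the 29 members that passed only through DC arrays or only through lymphocyte arrays, 38 of 112 were called higher and 30 lower, or 60.7%.

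Slc46a3 gave 794.1, 908.2 and 841.9 in B cells, 614.7, 414.8 and 337.7 in CD4 T cells and 552.2, 621.3 and 526.9 in CD8 T cells. Every DC array was far above these, with a difference of 3.88 ± 0.09 (adjusted p = 5.82e-19). Slc66a2, a relative of the lysosomal exporter Slc66a1, gave 1869.8, 1789 and 1923 in 33D1 DCs and 4387, 4658 and 3933 in DEC205 DCs. B cells were at 790.8, 792.3 and 879.2 and T cells at 148.6 to 349.4, so the 4 kinds of cell formed separate steps. The DC difference was 2.71 ± 0.10 (adjusted p = 3.65e-16). Slc8b1 was at 345.7 to 699.7 in lymphocytes, below both DC subsets, by 2.79 ± 0.13 (adjusted p = 3.26e-14). Slc12a2 was at 325.7 to 570.6 in lymphocytes, also below both subsets, by 2.38 ± 0.11 (adjusted p = 2.18e-14). Slc44a1 was at 509.8 to 1017 in lymphocytes, with a difference of 1.72 ± 0.11 (adjusted p = 9.33e-12). Slc35c2, of the nucleotide sugar family, exceeded 500 in DC arrays only, at 1119 to 1577 in wild-type DCs against 218.5 to 479.6 in lymphocytes. Slc7a7, which exchanges cationic for neutral amino acids, likewise exceeded 500 in DCs only, at 499.8 to 867 on 6 wild-type DC arrays, while B cells were at 268.5, 272.7 and 485.6 and T cells at 60.3 to 124.9. Slc7a5 was at 39.4, 43.5 and 38.8 in B cells, its lowest group.

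Of 8 sugar carriers, 5 were lower in DCs than in the mean of lymphocytes and 1 was higher, Slc2a6, which exceeded 500 in DC arrays only. Among the 5 was Slc2a3 (−0.54 ± 0.13, adjusted p = 0.000916), although its 33D1 arrays lay above all lymphocyte arrays. Slc2a1 gave 1964, 2159 and 2240.4 in B cells, 1164, 1515 and 1412 in CD4 T cells and 1332, 1168 and 1499.9 in CD8 T cells, all above the DC arrays. The difference was −1.28 ± 0.08 (adjusted p = 1e-11). Slc50a1, a sugar carrier of the SWEET type, was at 3055 to 4411 in lymphocytes and 1114 to 1513 in wild-type DCs, a difference of −1.41 ± 0.06 (adjusted p = 5.23e-15). Several members exceeded 500 in lymphocytes and in no DC array, and their values are given with no test. Slc16a1 gave 503.3, 462.3 and 725.1 in B cells, 882.9, 833.8 and 1112 in CD4 T cells and 1750, 1852 and 1704 in CD8 T cells, and at most 448.7 in DCs. Slc19a1, which takes up reduced folates for nucleotide synthesis, was at 819.7 to 1347 in lymphocytes and 131.7 to 446.5 in wild-type DCs. Slc25a32, linked to folate and FAD in mitochondria, was at 441.2 to 796.9 in lymphocytes and 262.3 to 410.1 in wild-type DCs. Slc15a2 was at 706.1 to 1845 in lymphocytes and Slc17a9 at 700.1 to 1945. The pseudogene Slc2a4rg-ps was at 724.5 to 1097 in T cells, 278.1 to 403 in B cells and 31 to 275.2 in wild-type DCs. For Slc30a7, called higher in DCs by 0.36 ± 0.09 (adjusted p = 0.00108), a second probe set was called the other way (−0.46, adjusted p = 0.00504), and no other member had such a conflict in any comparison. The mean of its probe sets gave −0.05 (adjusted p = 0.593).

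**Figure D5:**
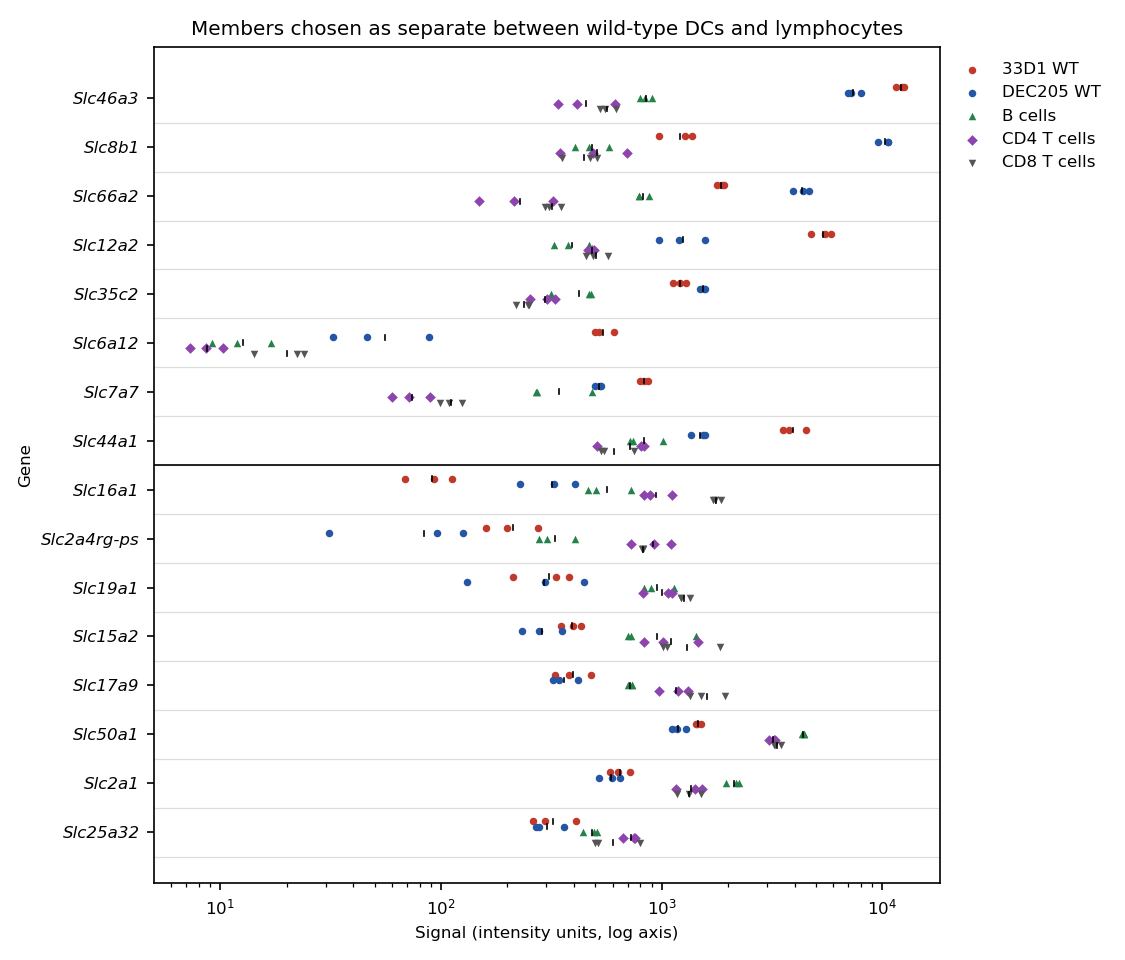
Points give the signal (log axis) on each wild-type array, with a short black bar for the mean of 3 arrays. The genes are the 8 highest and the 8 lowest called members among those whose DC and lymphocyte arrays do not overlap. Red and blue circles are 33D1 and DEC205 DCs, green triangles B cells, purple diamonds CD4 and grey triangles CD8 T cells; DC and lymphocyte points are separate because of that choice.

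B cells were next compared with the mean of both T cell groups. B cells had more of the endolysosomal peptide carriers and of Slc66a1, Slc66a2 and Slc9a7, and T cells had more of Slc12a7, Slc9a9 and the phosphate carrier Slc20a1. Of all genes 26.9% were called, 13.1% higher in B cells and 13.9% lower, and of those above 500 on at least 3 arrays 35.7%, 18.1% higher and 17.6% lower. Among the members 25 were higher and 33 lower in B cells, or 41.1%, and 24 and 24 after centring each array on its median. There were 25 and 25 of 132 without the 9 that exceeded 500 in T cells but in no B cell or DC array. Slc15a3 was at 573.8, 560 and 705.5 in B cells and 10.1 to 81.5 in T cells, a difference of 3.15 ± 0.26 (adjusted p = 1.38e-09). Slc15a4 differed by 2.79 ± 0.18 (adjusted p = 3.11e-11). Slc66a1 was at 789.8, 871.4 and 726.2 in B cells and 26.4 to 208 in T cells, 2.74 ± 0.25 apart (adjusted p = 9.65e-09). Slc9a7, a sodium proton exchanger of the trans-Golgi network, was at 2607, 2503 and 2170.4 in B cells and 184.8 to 403.3 in T cells, 2.72 ± 0.17 apart (adjusted p = 9.33e-12). Its endosomal relative Slc9a9 had the opposite pattern, at 98.5, 25.7 and 60.5 in B cells and 666.8 to 895.2 in T cells, a difference of −2.97 ± 0.16 (adjusted p = 8.69e-13). B cells were the lowest group for Slc9a9 and the highest for Slc9a7. Slc12a7 was at 334.1, 338.2 and 175.1 in B cells, 3568, 4189 and 4132 in CD4 T cells and 7581, 6053 and 5569.8 in CD8 T cells, with a difference of −3.98 ± 0.18 (adjusted p = 4.77e-14). Slc20a1 was at 939.2, 1102 and 812.7 in B cells and 3763 to 5099 in T cells, a difference of −2.08 ± 0.17 (adjusted p = 8.94e-10). Slc16a5, a monocarboxylate carrier family member, and Slc35g1 exceeded 500 in T cells only. The signal of Slc16a5 was 403.7 to 617.2 in T cells and 8.7 to 19.8 on the other 15 arrays.

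CD8 and CD4 T cells differed at fewer members. Of all genes 3.26% were called, 1.63% higher in CD8 T cells and 1.63% lower, and of those above 500 on at least 3 arrays 4.5%, 2.32% higher and 2.19% lower. Among the members 7 were higher in CD8 T cells and 3 lower, or 7.09%. With quantile normalisation the split was 9 higher and 2 lower. Slc6a19, or B0AT1, a neutral amino acid transporter best known from gut and kidney, gave 1339, 1847 and 1185 in CD8 T cells and 504.7, 175 and 169.9 in CD4 T cells, and 92.4 to 340.4 elsewhere. CD8 T cells were above every other array. Outside them only a CD4 array, at 504.7, exceeded 500. Membership of Slc6a19 thus rested on the CD8 arrays, so no test is given, though it is counted among the 7. Slc25a4 gave 5458, 7687 and 6774 against 3724, 3004 and 2805, 1.05 ± 0.15 apart (adjusted p = 0.00014). Slc25a53 gave 1252, 1420.2 and 1397 against 712.6, 300.8 and 664.8, 1.29 ± 0.21 apart (adjusted p = 0.000499). These 3 were separate between the T cell groups. Slc11a2 was higher in CD8 T cells by 0.76 ± 0.16 (adjusted p = 0.00687) and Slc43a2 by 0.81 ± 0.18 (adjusted p = 0.0117). Slc16a1 was higher by 0.88 ± 0.21 (adjusted p = 0.0166) and its relative Slc16a6 by 0.87 ± 0.21 (adjusted p = 0.0195). Slc16a1 was not called without CD4_T_cells replicate 1 or 2 or CD8_T_cells replicate 1 or 2 (adjusted p 0.0541 to 0.0699), nor Slc16a6 without CD4_T_cells replicate 1 or 2 or CD8_T_cells replicate 1 or 3 (adjusted p 0.0501 to 0.0768). On the CD4 side, Slc25a24 gave 950.1, 497.6 and 811.1 in CD4 T cells and 185.5, 321 and 239 in CD8 T cells, without overlap and with a difference of −1.41 ± 0.20 (adjusted p = 7.69e-05). Slc31a2 (−1.12 ± 0.30, adjusted p = 0.0425) and the haem carrier Slc48a1 (−0.56 ± 0.15, adjusted p = 0.0371) were also lower in CD8 T cells. Slc31a2 missed the threshold when any array of either T cell group but CD8_T_cells replicate 1 was left out (adjusted p 0.0555 to 0.246), and Slc48a1 when replicate 1 or 3 of either group was (adjusted p 0.0792 to 0.167). The single NK cell marker measured, Eomes, which CD8 T cells also express, was at 1404 to 1687 in CD8 T cells and 199.5 to 585.6 in CD4 T cells, and its part in these results was not tested.

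Carriers under other symbols and proteins that accompany carriers were taken as a list of 30 genes, 26 of them measured. In the wild-type subset comparison 4 were higher in 33D1 DCs and 5 lower, or 34.6% called, near the 32.5% of genes above 500 on at least 3 arrays. Emb, or embigin, which escorts monocarboxylate carriers to the membrane, averaged 3461 ± 221 signal units (SD, n = 3) in 33D1_WT and 369.4 ± 158 in DEC205_WT. Its difference of 3.13 ± 0.21 (adjusted p = 1.43e-10) was opposite in sign to that of Slc16a1. T cells had 8386 ± 1870 (CD4) and 8441 ± 1720 (CD8), and B cells 202.9 ± 25. Slco3a1, an organic anion carrier, had 55.37 ± 34.9 in 33D1_WT and 2977 ± 94.6 in DEC205_WT, a difference of −4.91 ± 0.21 (adjusted p = 2.42e-13). Spns3, of the sphingolipid carrier family, was higher in 33D1 DCs by 2.31 ± 0.17 (adjusted p = 1.09e-09) and Flvcr1, known as an exporter of haem and a carrier of choline, by 1.77 ± 0.15 (adjusted p = 9.29e-09).

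Several members are neighbours in the genome, as the RefSeq gene order shows. Pairs with no protein-coding gene between them were Slc22a5 and Slc22a21, Slc38a1 and Slc38a2, Slc6a12 and Slc6a13, and Slc6a19 and Slc12a7. The copper carriers Slc31a1 and Slc31a2 have 1 coding gene between them, as do Slc35b2 and Slc29a1, and Slc46a3 and Slc7a1. Slc38a1 and Slc38a2 were both higher in 33D1 DCs, and of Slc6a19 and Slc12a7 only Slc12a7 was called. Of Slc35b2 and Slc29a1 only Slc29a1 was called, and of Slc46a3 and Slc7a1 only Slc46a3, both higher in 33D1 DCs. In the other pairs Slc22a21, Slc6a12, Slc6a13 and Slc31a1 passed 500 only through the subset where they were high, so the direction was set by the rule. The first 3 pairs and the copper carriers each belong to 1 family, so their probe sequences may share stretches, which was not tested.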

How the data were processed

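RNA of 21 pooled samples was hybridised as biotin-labelled cRNA to Affymetrix arrays. The deposited values are linear signal intensities from GCOS with the MAS5 method, per the submitters' processing notes, and no versions were given there. Of 45101 probe sets, 34945 had 1 gene symbol in the platform annotation. Signals were used as deposited, with no further scaling, an offset of 48.6 (the 25th percentile of the table) and log2. Genes above the table median of 156.3 on at least 3 arrays were tested, with the probe set of highest mean signal per gene. limma 3.58.1 in R 4.3.3 fitted the 7 group means over all 21 arrays, with an intensity trend in eBayes, 14 residual degrees of freedom and Benjamini-Hochberg adjustment. The code was tested on simulated data with 200 of 13284 genes changed in the wild-type subset comparison. It called 57% of changes of 1 log2 unit and 93% of changes of 2. False calls numbered 15, or 9.09% of the calls. Precision is limited by having 3 arrays per group.

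The members, substrate lists and comparisons were chosen with earlier results of these data known. Genes were named as the 8 (5 in the smaller comparisons) highest and lowest called members whose arrays did not overlap, up to 3 members of each list, 4 partners, all endolysosomal members, those at the threshold and a short list of well-known carriers. Of the last, Slc7a11, Slc40a1 and Slc16a3 were tested but are not members. Alternatives changed the offset, the filter, the normalisation, the trend, the probe set rule, a block for replicate number and the arrays included. Leaving out both mixed arrays rests on marker signals.

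Same-numbered arrays had correlated deviations of −0.38 to 0.36 (median −0.03, 63 pairs), against −0.47 to 0.46 over 126 pairs of different number. Between the Flt3L subsets all 3 were over 0.1 (0.23, 0.15 and 0.16), so there, from the data and not the labels, the numbers were taken as pairs and a block for them was added after seeing the data. In no other pair of groups were all 3 over 0.1.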

Additional observations from a re-analysis of the deposited data

How the results depend on the processing

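Between DC subsets, for Flt3L and for B over T cells, no member called under either setting changed sign under an alternative, while differences near 0 did. Under median centring Slc38a7 went from 0.05 to −0.03 between wild-type subsets and Slc7a7 from 0.09 to −0.01 in Flt3L mice. Members called under one of the settings that changed sign were Slc30a7 and Slc35a2 for DCs over lymphocytes and Slc25a10 for CD8 over CD4. With replicate numbers as a block over all groups, 30 members were called higher and 30 lower between wild-type subsets, 25 and 32 in Flt3L mice, 50 and 45 for DCs over lymphocytes, 24 and 34 for B over T cells, and 7 and 2 for CD8 over CD4 T cells. Centring arrays on their median left 29 in place of 44 members lower in DCs than in lymphocytes, 4 in place of 7 higher and 1 in place of 3 lower in CD8 T cells, and 0 Flt3L effects in either subset; it moved the median of all genes from −0.06 to 0.08 for B over T cells. Averaging probe sets left 1 member lower in CD8 T cells. The 2 Flt3L calls in 33D1 DCs became 1 without the intensity trend or without the mixed arrays. The 1 member higher in DEC205 DCs of Flt3L mice became 0 under quantile normalisation, without the trend, with the block, with averaged probe sets and without the mixed arrays, and under quantile normalisation 2 members were lower. With the block in the Flt3L arrays alone, chosen after seeing the data, 25 members were higher and 33 lower between Flt3L subsets, and 0 were higher in DEC205 DCs of Flt3L mice. The cause was not tested. Leaving out single arrays gave 26 to 28 higher and 25 to 28 lower between wild-type subsets, 22 to 23 and 27 to 31 in Flt3L mice, 48 to 52 and 41 to 46 for DCs over lymphocytes, 21 to 26 and 25 to 35 for B over T cells, 5 to 8 and 1 to 2 for CD8 over CD4, 0 to 0 and 0 to 2 for Flt3L in 33D1 DCs, and 0 to 1 and 1 to 3 in DEC205 DCs. Dim signals near the offset limit the fold of low genes.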

Other observations

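Slc27a2, a fatty acid transport protein that also activates very long chain fatty acids, passed the filter for testing but is not among the carriers above 500 on 3 arrays, and it was singled out after its values were seen. Its signals were 438.1, 632.3 and 527 in 33D1_Flt3L and 82.6, 70.7 and 35.3 in 33D1_WT, without overlap. In DEC205 DCs it gave 10, 19.3 and 14.2 in Flt3L mice and 10.9, 21.8 and 11.4 in wild-type mice. The limma difference between Flt3L and wild-type mice in 33D1 DCs was 2.39 ± 0.29 (adjusted p = 0.000122). It was the only Slc gene tested whose subset difference changed between wild-type and Flt3L mice (2.40 ± 0.40, adjusted p = 0.0174).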
